A study of Homo sapiens with 29 samples.

Results

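The replication-dependent histone genes encode the bulk histones that package newly made DNA. They were taken as the protein-coding genes of GENCODE 44 on hg19 whose symbols are H1-1 to H1-6, or begin with H2AC, H2BC, H3C or H4C followed by digits. The rule found 64 genes among 19785 coding gene symbols: 6 H1, 16 H2A, 16 H2B, 13 H3 and 13 H4. By position, 51 lie on chromosome 6, 12 on chromosome 1 and 1 (H4C16) on chromosome 12. Another 2 coding histone genes in these clusters carry older symbols in the annotation, HIST1H4B and HIST2H2AA3. The rule leaves them out, and they are described among the neighbours.

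The study mapped where subunits of the INO80 chromatin remodelling complex sit in the genome, by chromatin immunoprecipitation and sequencing (ChIP-seq) in HepG2 and Huh7, both human liver cancer cell lines. The antibodies were against INO80 (3 HepG2 and 2 Huh7 libraries), MCRS1 (2 in each line), RUVBL2 (2 in each line), RUVBL1 (2, HepG2) and YY1 (2, Huh7), and each line had 2 input libraries without antibody. YY1 in HepG2 was made by the submitters from reads of the ENCODE project. The labels name no drug for these groups, and the submitters' own cells were fixed in formaldehyde. Each antibody and line gave 1 deposited peak list, so there are 5 lists for HepG2 and 4 for Huh7, RUVBL1 having been mapped in HepG2 alone. The lists range from 3322 peaks (RUVBL2 in Huh7) to 39293 (YY1 in HepG2), and hold positions with neither heights nor read counts. The depth behind a peak is therefore unknown, and no value below has a replicate or a test. Whether the libraries came from separate cultures is not stated in the labels, and 2 of the 3 INO80 libraries in HepG2 used another antibody lot than the remaining one and both Huh7 libraries.

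Histone genes of this class are switched on as cells enter S phase, when DNA is copied, and are silenced again afterwards. They lie in dense clusters, mostly without introns, and many H2A and H2B genes face away from each other across a short shared promoter. Their messages end in a conserved stem-loop in place of a poly(A) tail, which the stem-loop binding protein recognises. INO80 is the ATPase that gives the remodeller its name. MCRS1 belongs to a module found in INO80 complexes of animals, RUVBL1 and RUVBL2 are the AAA+ helicase-like subunits that this complex shares with other remodellers, and YY1 is a sequence-specific zinc-finger factor that copurifies with it.

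The sequences below, read from the GRCh37 genome (the sequence of hg19), show what the members carry beside the peaks. Capitals mark the letters searched on both strands: TATAAA (bound by the general factor TBP), CCAAT (the box bound by NF-Y), ATTTGCAT (the octamer bound by Oct factors), AAACACA (the AC box of H1 genes), GGTCCG (within the H4-specific element) and AANATGGC (a YY1 core). The first stretch is the whole space between the divergent starts of H2BC4 and H2AC6 (chr6:26124155-26124399, plus strand), which held the widest INO80 peaks of any member. The next 3 are the 250 bases before the start of H1-4 (chr6:26156307-26156556, plus strand), H3C4 (chr6:26197515-26197764, minus strand) and H4C5 (chr6:26204588-26204837, plus strand), each bound in all 9 lists. The last 3 are the same stretch of members with no peak in any list: H2AC1 (chr6:25726791-25727040), H1-6 (chr6:26108364-26108613) and H4C7 (chr6:26247225-26247474), all on the minus strand and printed 5′ to 3′ on it.
H2BC4 to H2AC6: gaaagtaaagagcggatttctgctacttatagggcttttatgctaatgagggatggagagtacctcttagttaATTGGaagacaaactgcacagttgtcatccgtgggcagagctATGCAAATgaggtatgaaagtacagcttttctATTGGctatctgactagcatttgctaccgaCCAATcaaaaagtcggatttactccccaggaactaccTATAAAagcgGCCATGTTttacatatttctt
H1-4: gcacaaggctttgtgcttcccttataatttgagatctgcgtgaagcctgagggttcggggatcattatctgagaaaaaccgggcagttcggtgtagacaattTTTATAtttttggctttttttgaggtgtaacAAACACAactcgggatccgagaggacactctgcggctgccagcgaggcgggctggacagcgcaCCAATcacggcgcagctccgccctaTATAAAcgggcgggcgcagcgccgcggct
H3C4: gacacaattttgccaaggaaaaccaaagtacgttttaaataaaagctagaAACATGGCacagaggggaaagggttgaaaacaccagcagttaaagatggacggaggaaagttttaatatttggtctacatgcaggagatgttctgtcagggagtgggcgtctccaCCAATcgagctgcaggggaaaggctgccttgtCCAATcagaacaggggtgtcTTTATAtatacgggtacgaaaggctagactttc
H4C5: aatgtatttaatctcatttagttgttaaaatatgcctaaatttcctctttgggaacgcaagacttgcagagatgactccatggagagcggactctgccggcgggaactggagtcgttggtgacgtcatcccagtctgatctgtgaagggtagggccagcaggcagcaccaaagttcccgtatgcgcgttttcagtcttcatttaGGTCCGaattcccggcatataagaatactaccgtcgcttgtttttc
H2AC1: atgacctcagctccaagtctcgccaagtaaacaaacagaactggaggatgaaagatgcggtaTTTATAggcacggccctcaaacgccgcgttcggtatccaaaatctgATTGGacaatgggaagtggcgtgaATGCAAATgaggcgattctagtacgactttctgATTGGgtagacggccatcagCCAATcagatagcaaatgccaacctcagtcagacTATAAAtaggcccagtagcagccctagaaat
H1-6: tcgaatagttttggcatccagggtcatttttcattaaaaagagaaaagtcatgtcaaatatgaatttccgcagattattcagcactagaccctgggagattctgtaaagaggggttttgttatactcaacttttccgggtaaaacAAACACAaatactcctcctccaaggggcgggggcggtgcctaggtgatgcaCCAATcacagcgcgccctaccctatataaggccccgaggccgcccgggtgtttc
H4C7: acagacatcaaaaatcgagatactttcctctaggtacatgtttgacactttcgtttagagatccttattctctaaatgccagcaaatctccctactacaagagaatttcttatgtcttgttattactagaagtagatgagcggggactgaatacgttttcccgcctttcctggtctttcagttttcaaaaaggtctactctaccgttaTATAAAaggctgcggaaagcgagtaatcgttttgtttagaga

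INO80 peaks lay within 1 kb of a start at 54 of the 64 histone genes in HepG2 and at 58 in Huh7. These are 84.4% and 90.6% of the histone genes, and the background over the whole coding set was 63.7% in HepG2 and 47.7% in Huh7. By the ratio of shares, the 3 lists with the fewest peaks stood farthest above their background, though a high background caps this ratio. RUVBL2 in Huh7 reached 55 members (85.9%) and 12.7% of coding genes, and MCRS1 in Huh7 reached 54 (84.4%) and 21.8%. RUVBL1 in HepG2 reached 37 members (57.8%) and 16.8% of coding genes. With each list cut to its widest 3322 peaks, INO80 and YY1 in Huh7 had higher ratios than RUVBL1 in HepG2. The shares were then 81.2% beside 15.3% (INO80), 84.4% beside 14.7% (YY1) and 56.2% beside 11.2% (RUVBL1). For RUVBL2 in HepG2 the count over its full list was 43 (67.2%), beside 39.1%. MCRS1 in HepG2 marked 50 members (78.1%) beside 58.1% of coding genes, and YY1 marked 51 (79.7%) beside 62.6% in HepG2 and 58 (90.6%) beside 51.5% in Huh7. Since 1 broad peak can reach several starts, each peak was also given to the coding gene whose start lay nearest its centre. INO80 in HepG2 then had 35 members (54.7%), under the 57.3% of all coding genes, so its excess there depends on how a peak is shared out. MCRS1 in HepG2 (53.1%, beside 51.8%) and YY1 in HepG2 (60.9%, beside 56.2%) came close to their background. The shares stayed farther above it for RUVBL1 (45.3%, beside 14.1%) and RUVBL2 (50%, beside 34.3%) in HepG2. In Huh7 they were 62.5% beside 42.7% (INO80), 60.9% beside 18.8% (MCRS1), 59.4% beside 10.9% (RUVBL2) and 59.4% beside 45.9% (YY1, 38 members).

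**Figure D1:**
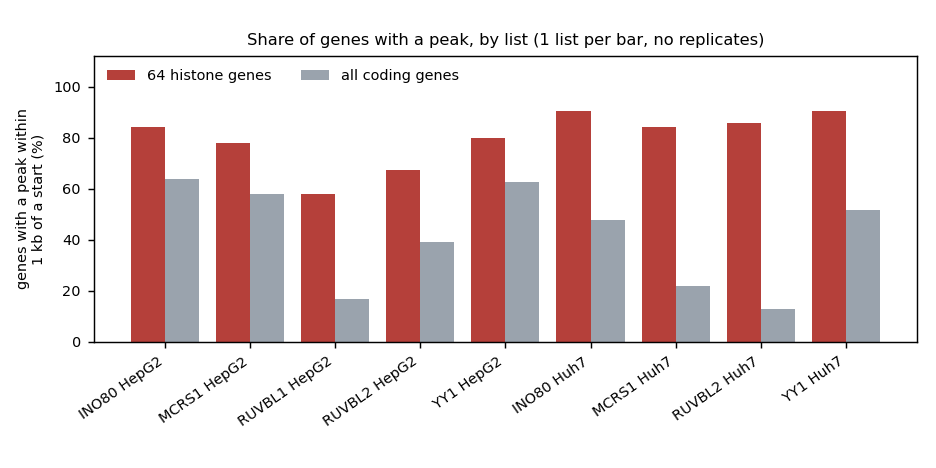
Bars give the percentage of the 64 histone genes (red) and of all 19785 coding genes (grey) with a peak within 1 kb of a start, for each of the 9 peak lists; there are no replicates and so no error bars. The red bar is the higher in each list, and the gap is widest for RUVBL2 in Huh7, at 85.9% against 12.7%.

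At 36 members (56.2%) a peak of all 9 lists was present, beside 5.26% of coding genes. Those 36 were 2 H1 genes (H1-2, H1-4), 10 H2A genes (H2AC6, H2AC7, H2AC8, H2AC13, H2AC14, H2AC15, H2AC17, H2AC19, H2AC20, H2AC21), 9 H2B genes (H2BC3, H2BC4, H2BC5, H2BC13, H2BC14, H2BC15, H2BC17, H2BC18, H2BC21), 6 H3 genes (H3C2, H3C3, H3C4, H3C10, H3C14, H3C15) and 9 H4 genes (H4C3, H4C4, H4C5, H4C8, H4C11, H4C12, H4C14, H4C15, H4C16). In HepG2, 37 members (57.8%) had a peak of all 5 lists, beside 14.4% of coding genes. The 4 Huh7 lists met at 53 members (82.8%), beside 9.07%. At the other end, 5 members (7.81%) had a peak in no list, beside 27.8% of coding genes. Between the extremes lay 23 members with peaks in 2 to 8 lists. Of these, H3C13, H2AC4, H3C6, H3C7, H2BC11, H2AC11 and H1-5 lacked a single list, which was RUVBL1 for each but H3C6, where RUVBL2 in Huh7 was missing.

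**Figure D2:**
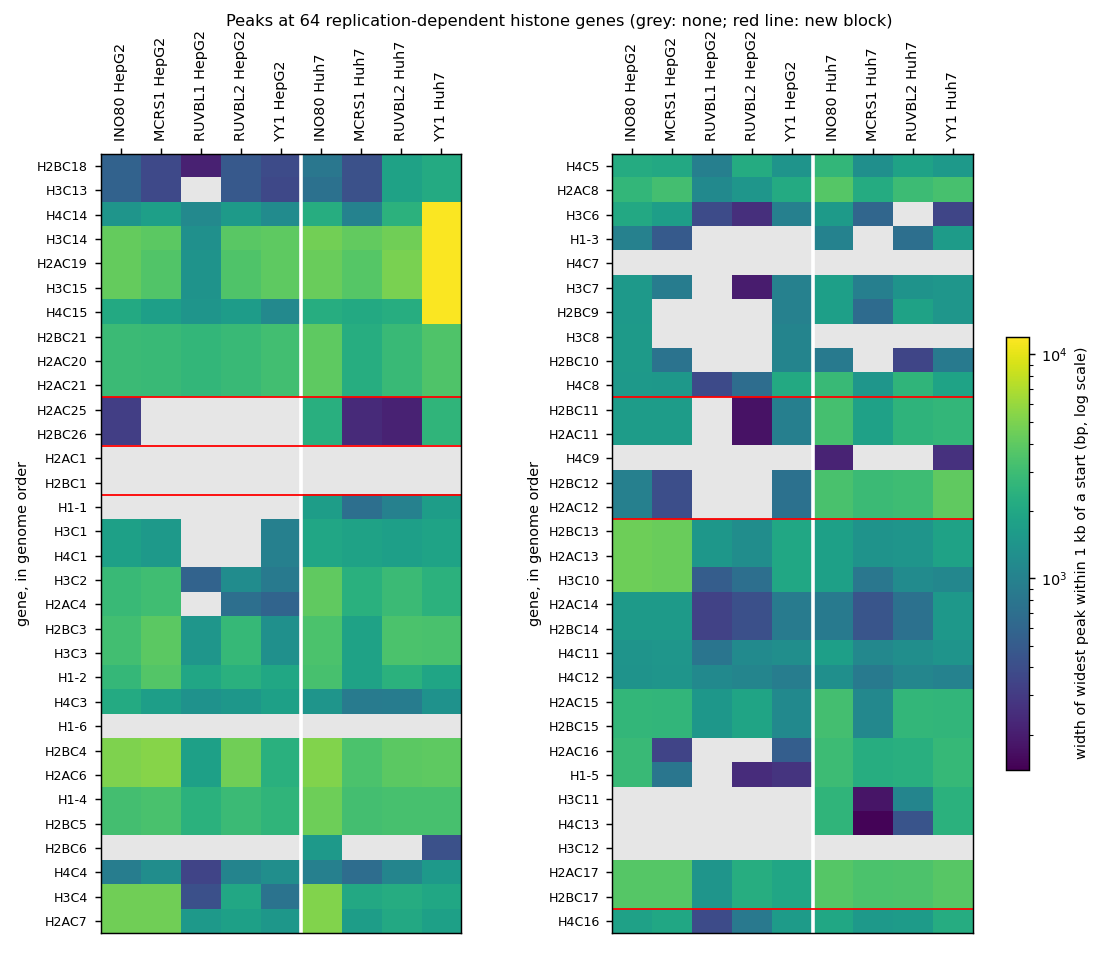
Each row is a histone gene in genome order (read down the left panel, then the right) and each column a peak list; colour gives the width in bp, on a log scale, of the widest peak within 1 kb of a start, and grey means that no peak was there. Red lines divide blocks of genes; the 5 fully grey rows are H2AC1, H2BC1, H1-6, H4C7 and H3C12.

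By family, the linker histone H1 genes had INO80 at 4 of 6 in HepG2 and 5 of 6 in Huh7. Their proteins bind the DNA between nucleosomes. Over all coding genes the shares were 63.7% in HepG2 and 47.7% in Huh7, the background for each family below. The H1 count in HepG2 was near that share. The widest INO80 peak among H1 genes was at H1-4 (3160 bp in HepG2, 4530 bp in Huh7). Next came H1-5 in HepG2 (2864 bp) and H1-2 in Huh7 (3296 bp). H1-4 carried a peak in each list. Its peaks were 3160, 3367, 2408, 2887 and 2576 bp wide in HepG2 (INO80, MCRS1, RUVBL1, RUVBL2, YY1) and 4530, 3172, 3268 and 3285 bp in Huh7 (INO80, MCRS1, RUVBL2, YY1). Each of those peaks also came within 1 kb of H2BC5, its neighbour. H1-3 was more thinly covered, with INO80 (994 bp) and MCRS1 (494 bp) in HepG2 and INO80 (1016 bp), RUVBL2 (714 bp) and YY1 (1603 bp) in Huh7.

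The H2A and H2B genes, whose proteins form the dimers on either face of the nucleosome, had INO80 at 15 of 16 and 14 of 16 in HepG2. In Huh7 INO80 was at 15 of 16 of each. The widest INO80 peak of any member covered the starts of H2BC4 and H2AC6, at chr6:26121832-26126896 in HepG2 (5065 bp) and chr6:26121916-26127103 in Huh7 (5188 bp). At this pair the MCRS1, RUVBL1, RUVBL2 and YY1 peaks of HepG2 were 5390, 1753, 4564 and 2380 bp wide. In Huh7 the MCRS1, RUVBL2 and YY1 peaks there were 3419, 3917 and 3989 bp wide. MCRS1 in HepG2 thus had a wider peak there than INO80, and RUVBL1 the narrowest of the 9. Next by INO80 width came H2AC7 among H2A genes (4609 bp in HepG2, 5167 bp in Huh7), and among H2B genes H2BC13 in HepG2 (4529 bp) and H2BC5 in Huh7 (4530 bp).

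Of the 13 genes for H3, whose tail carries many of the marks studied in chromatin, 11 had INO80 in each line. H3C4 shared its INO80 peak with H2AC7 in both lines (chr6:26195811-26200419 in HepG2, chr6:26195574-26200740 in Huh7). At its start the widest HepG2 peaks of MCRS1, RUVBL1, RUVBL2 and YY1 measured 4575, 412, 2010 and 766 bp. The Huh7 peaks of MCRS1, RUVBL2 and YY1 measured 2055, 2194 and 1979 bp. So the broad domain over this pair was one of INO80 in both lines and of MCRS1 in HepG2, while the other 6 lists held narrower peaks there. The second widest INO80 peaks of the family were at H3C10 in HepG2 (4529 bp) and at H3C14 in Huh7 (4615 bp).

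H4 genes, whose product pairs with H3 at the centre of the nucleosome, had INO80 at 10 of 13 in HepG2 and 12 of 13 in Huh7. Their widest INO80 peaks were narrower than those of the core histone families above: 2168 bp at H4C5 and 2138 bp at H4C3 in HepG2, and 2884 bp at H4C8 and 2665 bp at H4C5 in Huh7. H4C5 had a peak in each list, of 2168, 2065, 960, 2175 and 1400 bp in HepG2 (INO80, MCRS1, RUVBL1, RUVBL2, YY1) and 2665, 1294, 1813 and 1531 bp in Huh7 (INO80, MCRS1, RUVBL2, YY1). Unlike the shared H2A and H2B domains, these peaks reached no other member. H4C16, the one member on chromosome 12, also had all 9, with INO80 peaks of 1781 bp in HepG2 and 1973 bp in Huh7.

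Members with no gap of 100 kb or more between neighbouring starts form 7 blocks. The large block on chromosome 1 (10 genes over 75.6 kb, starts from 149783925 to 149859515) had each of its genes in each list, except that H3C13 lacked RUVBL1. The other chromosome 1 block is the divergent pair H2AC25 and H2BC26. In HepG2 it had a single INO80 peak of 318 bp and no peak of the other 4 lists. In Huh7 it had INO80 at 2303 bp, YY1 at 2577 bp, MCRS1 at 236 bp and RUVBL2 at 216 bp.

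On chromosome 6 the largest block (28 genes over 268 kb) had INO80 at 24 genes in HepG2 and 25 in Huh7. There the other HepG2 lists reached 22 (MCRS1), 16 (RUVBL1), 18 (RUVBL2) and 23 (YY1) genes. Those of Huh7 reached 22 (MCRS1), 23 (RUVBL2) and 25 (YY1). The block of 16 genes had 13, 13, 11, 12 and 13 in HepG2, in the order INO80, MCRS1, RUVBL1, RUVBL2, YY1, and 15 in each Huh7 list. The block of 5 genes (H2BC11, H2AC11, H4C9, H2BC12, H2AC12) had INO80, MCRS1 and YY1 at 4 in HepG2, RUVBL2 at 2 and RUVBL1 at none. In Huh7 INO80 and YY1 were at 5 of them, MCRS1 and RUVBL2 at 4. The pair H2AC1 and H2BC1, alone at the near end of the cluster, had no peak in any list. Over all coding genes the HepG2 shares were 63.7% (INO80), 58.1% (MCRS1), 16.8% (RUVBL1), 39.1% (RUVBL2) and 62.6% (YY1). Those of Huh7 were 47.7% (INO80), 21.8% (MCRS1), 12.7% (RUVBL2) and 51.5% (YY1).

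Counted once each, the peaks at members on chromosomes 6 and 1 numbered far fewer than the members reached. INO80 had 35 such peaks in HepG2 (27 on chromosome 6 and 8 on chromosome 1) and 40 in Huh7 (32 and 8). For MCRS1 there were 33 (26 and 7) and 38 (30 and 8), and for RUVBL2 33 (26 and 7) and 37 (30 and 7). YY1 had 38 (31 and 7) in HepG2 and 39 (34 and 5) in Huh7, and RUVBL1 had 29 (21 and 8). No peak reached more than 3 members. Of the peaks between the first and the last member start on chromosome 6, those at members were 27 of 108 for INO80 in HepG2, with 11 at other coding starts and 70 elsewhere. For RUVBL2 in Huh7 they were 30 of 44, with 2 at other coding starts and 12 elsewhere.

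Reads over part of the large chromosome 1 block cannot be placed on 1 copy. A stretch of 26101 bp in it is present as an inverted repeat at 99.7% identity (chr1:149789040-149815103 and chr1:149821843-149847929). The first copy holds the members H4C14 and H3C14, and also HIST2H2AA3, which the rule leaves out. The second holds H2AC19, H3C15 and H4C15. The 300 bases around the start (250 before, 50 after) are identical in H4C14 and H4C15. In H3C14 and H3C15 they align with 0 mismatches and 8 gap positions (97.4% identity), and a longer alignment of 1997 bp around these starts is 100% identical. YY1 in Huh7 had a single peak over all the members on each copy, of 11635 and 11655 bp, where each of the other 8 lists had separate peaks. On chromosome 6 the H4C11 and H4C12 windows are 98.3% identical. The other 58 members have no such match to another member at 95% or more. H2AC19 is among those 58 but lies in the repeat.

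**Figure D3:**
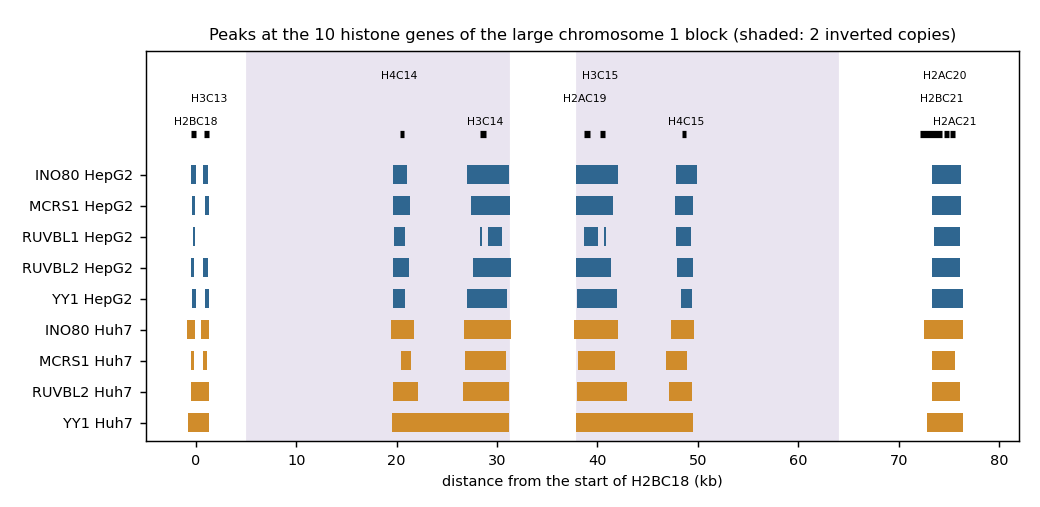
Bars are the peaks of each list (blue, HepG2; orange, Huh7) at the 10 histone genes of the large chromosome 1 block, drawn to scale by distance from the start of H2BC18 in kb; black boxes are the genes and shading marks the 2 inverted copies. The YY1 peaks of Huh7 on the copies are single bars of 11635 and 11655 bp.

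Peaks at histone genes were broad. The median width of the distinct INO80 peaks at members was 1915 bp in HepG2 and 2237 bp in Huh7, whereas all INO80 peaks at coding starts had medians of 1027 and 559 bp. RUVBL2 in Huh7 showed the largest ratio of medians, 7.28, with 1942.5 bp at members and 267 bp at coding starts. YY1 in HepG2 showed the smallest, 1.38, with 1133 and 822 bp. The other pairs of medians were 1719.5 and 1047 bp for MCRS1 in HepG2, 1147.5 and 302 bp for RUVBL1, 1233.5 and 456 bp for RUVBL2 in HepG2, 1377 and 294 bp for MCRS1 in Huh7, and 1851 and 598 bp for YY1 in Huh7. Of the distinct peaks at members, 60.5% (RUVBL2), 53.8% (MCRS1), 51.2% (INO80) and 42.5% (YY1) in Huh7 were among the widest 5% of peaks at coding starts. In HepG2 these shares ran from 16.7% (INO80) to 32.4% (MCRS1). The members' transcripts are short, 386 to 2224 bp with a median of 489.5 bp, so that a peak often ran past both ends: the INO80 peak covered the whole transcript at 39 of 54 members in HepG2 and 49 of 58 in Huh7.

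**Figure D4:**
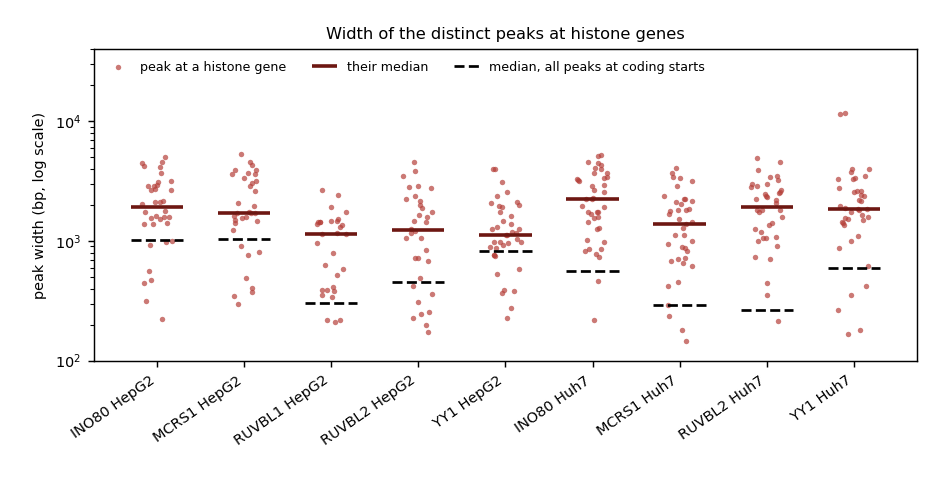
Points are the distinct peaks at histone genes in each list, with their width in bp on a log scale; solid bars are their medians and dashed bars the medians of all peaks at coding starts. The solid bar lies above the dashed one in each list, from 1133 against 822 bp for YY1 in HepG2 to 1942.5 against 267 bp for RUVBL2 in Huh7.

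For INO80, RUVBL2 and YY1 the peaks at histone genes tended to be wider in Huh7, where those of coding genes tended to be narrower. Among the 53 members with INO80 in both (82.8%, beside 45.3% of coding genes), the median width of the widest peak was 2660 bp in HepG2 and 2944 bp in Huh7. The Huh7 peak was the wider at 44 of them. Of the 8961 coding genes with INO80 in both lines, it was the wider at 18.1%, their medians being 1281 bp in HepG2 and 656 bp in Huh7. RUVBL2 was wider in Huh7 at 38 of 42 members (medians 1618.5 and 2518 bp), beside 18.5% of coding genes. YY1 was wider in Huh7 at 42 of 50 (1269 and 2542.5 bp), beside 24.6%, with the HepG2 reads coming from ENCODE. MCRS1 differed: its peak was wider in Huh7 at 15 of 48 members (2600 and 1819 bp), beside 4.56% of coding genes. Width depends on depth and on the antibody, which cannot be told apart from the line here, and members under 1 peak are not independent.

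INO80 in HepG2 without INO80 in Huh7 was seen at 1 member, H3C8 (1.56%, beside 18.4% of coding genes). Its 1574 bp HepG2 peak is shared with H2BC10, and the nearest INO80 peak of Huh7 lay 1500 bp from its start. The reverse, INO80 in Huh7 alone, held at 5 members (7.81%, beside 2.4% of coding genes): H1-1, H2BC6, H4C9, H3C11 and H4C13. H3C11 and H4C13 lay under 1 INO80 peak of 2559 bp in Huh7 (chr6:27839018-27841576), and their nearest INO80 peaks in HepG2 were 4782 and 5970 bp away. MCRS1 (179 and 147 bp), RUVBL2 (1065 and 444 bp) and YY1 (2399 bp at both) of Huh7 were there too, and no HepG2 list was. H1-1 likewise had all 4 Huh7 lists (1671, 715, 993 and 1660 bp for INO80, MCRS1, RUVBL2 and YY1) and none of HepG2. H2BC6 and H4C9 had INO80 and YY1 of Huh7 alone, at H4C9 as peaks of 220 and 263 bp. H2BC6 has a second annotated start upstream: its INO80 peak measured 463 bp at the start of its short transcript and 1553 bp at the other.

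RUVBL2 reached 13 members in Huh7 that it did not reach in HepG2 (20.3%, beside 1.42% of coding genes). At 1 member, H3C6, it was in HepG2 alone (1.56%, beside 27.9%). The 13 were H2AC25, H2BC26, H1-1, H3C1, H4C1, H1-3, H2BC9, H2BC10, H2BC12, H2AC12, H2AC16, H3C11 and H4C13. The Huh7 list of RUVBL2 is much the shorter, 3322 peaks beside 12936. At H2BC12 and H2AC12, a divergent pair, the RUVBL2 peak of Huh7 was 3008 bp wide and HepG2 had none, while the INO80 peak of HepG2 measured 972 bp and that of Huh7 3359 bp. For YY1 there were 8 members in Huh7 alone (12.5%, beside 3.01%) and 1 in HepG2 alone (1.56%, beside 14%). For MCRS1 there were 6 (9.38%, beside 0.697%) and 2 (3.12%, beside 37%).

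Where members had INO80, the partner subunits were usually there too. In Huh7, 55 of the 58 had RUVBL2 and 54 had MCRS1, against 25% and 43% of the 9436 coding genes with INO80. YY1 was at 58 of the 58, against 84.7%. In HepG2, 37 of the 54 had RUVBL1 and 43 had RUVBL2, against 26.2% and 60.7% of the 12606 coding genes with INO80. MCRS1 (50 of 54) and YY1 (51 of 54) stood close to their 86.3% and 89% among coding genes. No member had a partner's peak without an INO80 peak of the same line. Among coding genes this was rare for RUVBL1 (0.147%) and RUVBL2 (0.435% in HepG2, 0.728% in Huh7), so that 0 of 64 says little for these. It was seen at 3.15% (HepG2) and 1.33% (Huh7) for MCRS1, and at 5.87% and 11.1% for YY1. Only the 10 members without INO80 in HepG2 and the 6 in Huh7 could show it. The absence therefore says little for MCRS1 and YY1 too. The INO80-bound members without MCRS1 were H2AC25, H2BC26, H2BC9 and H3C8 in HepG2 and H2BC6, H1-3, H2BC10 and H4C9 in Huh7.

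Divergent H2A and H2B genes mostly lay under 1 peak. There are 10 pairs of members whose starts face apart within 500 bp, each of 1 H2A and 1 H2B gene, with 194 to 251 bp (median 242) between the starts. A single peak came within 1 kb of both genes at 9 of the 10 pairs for INO80 in both lines and for MCRS1, RUVBL2 and YY1 in Huh7. In HepG2 the number was 8 for MCRS1 and YY1, 7 for RUVBL2 and 6 for RUVBL1. Starts this close let most peaks near one reach the other, as 767 other divergent coding pairs within 500 bp show. There 1 peak of HepG2 reached both genes at 92.7% (INO80), 93.6% (MCRS1), 41.1% (RUVBL1), 72.2% (RUVBL2) and 95.7% (YY1). In Huh7 the shares were 72.5% (INO80), 43.4% (MCRS1), 20.3% (RUVBL2) and 84.6% (YY1). A shared peak of INO80, MCRS1, RUVBL2 or YY1 in HepG2 was thus no more common at the histone pairs. Both start bases lay under the same peak at 9 pairs for YY1 in Huh7, 8 for INO80 in Huh7, 7 for INO80 in HepG2 and for MCRS1 in either line, 7 for RUVBL2 in Huh7, 6 for YY1 in HepG2, and 5 for RUVBL1 and RUVBL2 in HepG2. At the other coding pairs this held in HepG2 for 71.3% (INO80), 82.7% (MCRS1), 9% (RUVBL1), 30.4% (RUVBL2) and 92.7% (YY1). In Huh7 it held for 34.6% (INO80), 54.4% (YY1), 14.1% (MCRS1) and 4.04% (RUVBL2). The pairs with the widest INO80 peaks in HepG2 were H2BC4 with H2AC6 (5065 bp), H2BC13 with H2AC13 (4529 bp), H2AC17 with H2BC17 (3685 bp) and H2BC21 with H2AC20 (2918 bp). All 4 had both starts covered in all 9 lists. In Huh7 the H2BC13 and H2AC13 peak measured 1755 bp, less than its HepG2 width, whereas H2AC17 and H2BC17 kept 3692 bp.

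Peaks extended on both sides of the start. At 500 bp each list covered more members after the start than before it. At 1000 bp RUVBL1, RUVBL2 and YY1 in HepG2 covered fewer after it. INO80 in Huh7 lay over 53.1% of members at 1000 bp before the start, 79.7% at the start, 85.9% at 500 bp after it and 67.2% at 1000 bp after it. For all coding genes the same 4 points were 5.15%, 24.6%, 17.3% and 7.72%. MCRS1 in Huh7 lay over 54.7% of members at the start and 67.2% at 500 bp after it, and over 7.97% and 3.06% of coding genes. YY1 in HepG2 lay over 64.1% of members at the start, 50% at 500 bp after it and 43.8% at 500 bp before it. At 1000 bp it lay over 26.6% after the start and 29.7% before it. RUVBL1 lay over 40.6% at the start, 28.1% at 500 bp before it and 39.1% at 500 bp after it. Its coverage was 17.2% at 1000 bp before the start and 12.5% at 1000 bp after it. With a median transcript of 489.5 bp, the point 1000 bp after the start is past the end of most members. The highest coverage of members lay 100 to 350 bp after the start across the 9 lists, and that of coding genes 0 to 150 bp after. A neighbour's peak can add to these curves, so 17 members with no other histone gene start of these clusters within 3 kb were taken alone. Among them the median centre of the widest peak lay downstream of the start in each list, by 181.5 bp (RUVBL1) to 557 bp (YY1 in Huh7), but single genes differed. In HepG2 the centre was downstream at 9 of 13 genes for INO80, 10 of 13 for MCRS1, 8 of 12 for RUVBL1, 9 of 12 for RUVBL2 and 7 of 12 for YY1. In Huh7 it was at 13 of 15 for INO80 and YY1, 9 of 12 for MCRS1 and 11 of 12 for RUVBL2. The RUVBL1 centres ran from -989.5 to 920 bp, and those of YY1 in Huh7 from -746 to 5096 bp. H4C14 and H4C15 are among the 17, and their YY1 peaks of Huh7 (11635 and 11655 bp) also reached other members. Those shared peaks enter the 557 bp median and the 13 of 15 count for YY1. Peak centres were not computed for all coding genes, so whether the downstream offset is particular to histone genes was not tested. At 1000 bp coding genes too were covered more after the start in each list but RUVBL1. For INO80 in HepG2 the coding shares were 11% before the start and 17.1% after it, and for RUVBL1 1.44% and 1.29%. At 500 bp RUVBL1 and MCRS1 in Huh7 covered fewer coding genes after the start than before it.

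**Figure D5:**
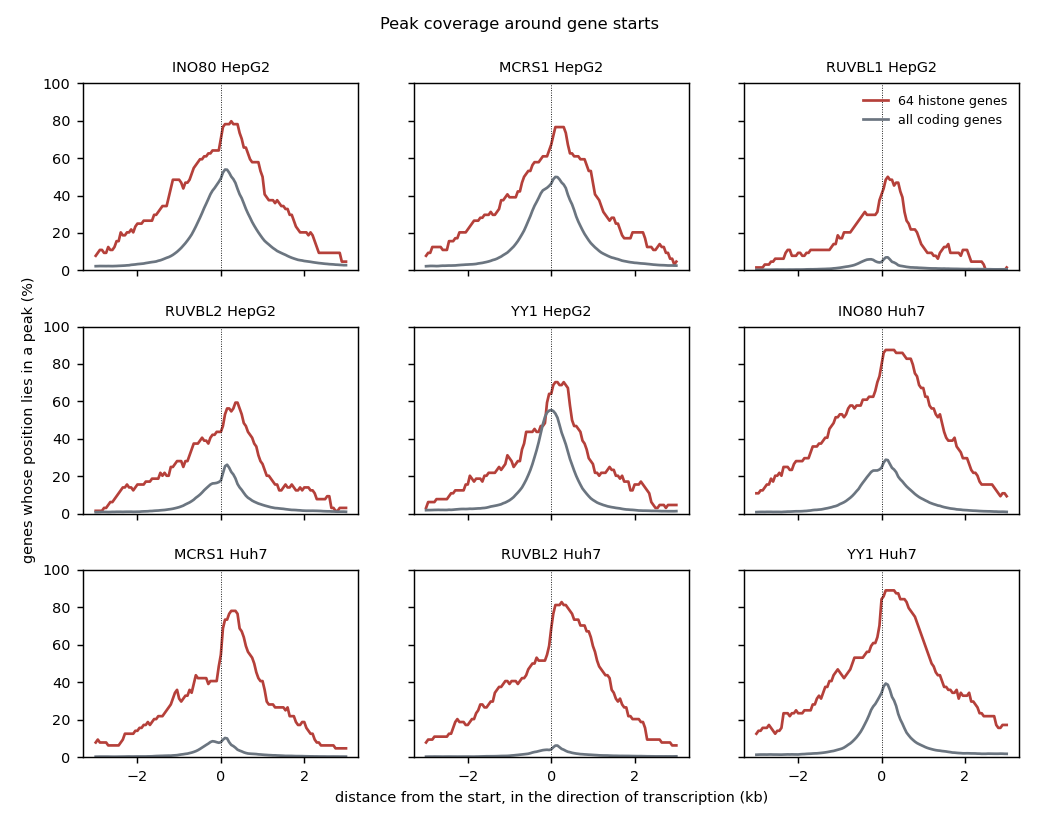
Each panel shows, for 1 peak list, the percentage of the 64 histone genes (red) and of all coding genes (grey) whose position lies in a peak, by distance in kb from the start in the direction of transcription. The red curve is highest just after the start, at 87.5% for INO80 in Huh7 where the grey curve reaches 28.9%.

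The start base itself was covered at 93.1% of the members with a YY1 peak in Huh7 and at 66% of such coding genes. For INO80 these shares were 83.3% and 76.3% in HepG2, and 87.9% and 51% in Huh7. RUVBL1 covered the start at 70.3% of its members, against 26.5%, and RUVBL2 in HepG2 at 65.1%, against 44.9%. YY1 in HepG2 was lower, at 80.4% of its members against 87.7% of its coding genes.

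The 5 members with no peak in any list are H2AC1, H2BC1, H1-6, H4C7 and H3C12, 1 from each family. H2AC1 and H2BC1 encode testis histones and H1-6 the testis H1t, while H4C7 encodes a diverged H4. From the starts of H2AC1 and H2BC1 the nearest INO80 peaks were 22456 and 22241 bp away in HepG2 and 74197 and 74412 bp in Huh7. The other 3 lie among bound genes. The nearest INO80 peak was 2602 bp (HepG2) and 2868 bp (Huh7) from H1-6, 2108 and 2228 bp from H4C7, and 1107 and 1222 bp from H3C12. H3C12 was thus just outside the 1 kb limit, and H4C7 and H1-6 lay farther out but within 3 kb. Just inside the limit, H3C8 in HepG2 was 850 bp from the INO80 peak credited to it.

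The letters in the promoters differed by family. In the 300 bases around the start, CCAAT was found at 55 of 64 members (36% of 19507 coding starts of that length) and TATAAA at 43 (9.57%). The octamer ATTTGCAT was found at 12 of 16 H2A and 12 of 16 H2B genes and at no H1, H3 or H4 gene, against 1.58% of coding starts. AAACACA was present in 6 of 6 H1 genes, 2 H3 genes and 1 H2A gene (4.13% of coding starts). GGTCCG was present in 11 of 13 H4 genes, absent from H4C1 and H4C7, and found in 3 members of other families (14.8%). Divergent pairs have overlapping windows, so that 1 site can count for both genes, as the octamer between H2BC4 and H2AC6 does. H2BC21 and H2AC20, 2 of the 3 other members with GGTCCG, are such a pair. The 2 H3 genes with AAACACA, H3C14 and H3C15, have near-identical windows. Among the 5 unbound members, H2AC1 and H2BC1 held the octamer, H1-6 held AAACACA, and 4 of the 5 held TATAAA and 4 CCAAT. The median GC content of these windows was 43.8% in members (36.3 to 58%) and 63.7% in coding starts.

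AANATGGC, the YY1 core, was found in 5 promoter windows (7.81%), those of H2BC21, H2AC20, H2BC4, H2AC6 and H3C4, a share near the 8.13% of coding starts. H2BC21 with H2AC20 and H2BC4 with H2AC6 are divergent pairs whose windows overlap. In the central 200 bp of the YY1 peaks at members, the letters were found in 1 of 39 peaks in HepG2 (2.56%, beside 8.28% of all YY1 peaks) and in 3 of 40 in Huh7 (7.5%, beside 7.26%). Anywhere in the peak they were found in 14 of 39 and 17 of 40, in peaks that are wider than most, beside 15.4% and 17.3% of all YY1 peaks.

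The stem-loop at the 3′ end marks the class. A match to the 16-base hairpin within 100 bases of the annotated end was found at 60 of the 64 members and at 4 of 19443 other coding genes (EAF1, ENSG00000282988, H3-4 and H3-7). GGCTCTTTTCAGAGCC was the form at 37 members, of each family but H4. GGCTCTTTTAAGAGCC was found at 8 members outside H4, and 3 H2A genes had forms of their own. H4 genes carried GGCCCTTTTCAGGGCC (8 genes) and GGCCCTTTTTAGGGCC (4 genes). H2BC21, H3C6, H2BC10 and H4C13 had no match there. All 5 members without peaks did have one, so that its presence went with bound and unbound genes alike.

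Histone genes outside the class serve both somatic cells and the germ line. Of 28 genes listed as replication-independent histones, variants and germ-line forms among them, 26 were in the annotation. INO80 was at 11 of these in each line (42.3%), under the background of all coding genes. The list holds many germ-line genes, and this share depends on their number. The same 11 had INO80 in both lines, among them H2AZ1 and H2AZ2, for a variant found at gene starts, and CENPA, for the H3 variant of centromeres. H2AX, whose protein is phosphorylated at DNA breaks, and H3-3B had all 9 lists. H2AX had INO80 peaks of 1476 bp in HepG2 and 2350 bp in Huh7, and H3-3B of 1639 and 999 bp. RUVBL2 in Huh7 was at 4 of the 26 (15.4%) and MCRS1 in Huh7 at 5 (19.2%).

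Of 31 genes for the transcription and 3′ processing of histone messages, INO80 was at 28 (90.3%) in HepG2 and 21 (67.7%) in Huh7. RUVBL2 in Huh7 was at 7 (22.6%) and MCRS1 in Huh7 at 13 (41.9%), so the Huh7 shares of these factors lay between those of all coding genes and those of the histone genes. In HepG2 they stood above the histone genes for INO80 (84.4% there), MCRS1 (96.8%, beside 78.1%) and YY1 (100%, beside 79.7%). They stood below for RUVBL1 (38.7%, beside 57.8%) and RUVBL2 (64.5%, beside 67.2%). NPAT, the coactivator at histone loci, had peaks in 7 lists and an INO80 peak of 186 bp in HepG2 and 231 bp in Huh7. HINFP, which binds the H4 promoter element, had 7 lists (258 and 186 bp for INO80), and SLBP, the stem-loop binding protein, had 8 (2042 and 594 bp). CDK2, ZNF473 and CSTF2 had no INO80 peak in HepG2.

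Of 23 other coding genes between the members, INO80 was at 14 in HepG2 (60.9%) and 11 in Huh7 (47.8%), near the 63.7% and 47.7% of all coding genes. RUVBL1 was at 8 (34.8%), beside its 16.8%. These were ABT1, BTN2A1, HMGN4, ZNF184, HIST1H4B, HIST2H2AA3, BOLA1 and ENSG00000282988. The genes from HIST1H4B on are histone genes or share peaks with one, as set out below. They also count for INO80 in both lines, so these shares do not describe the non-histone neighbours alone. MCRS1 and RUVBL2 in Huh7 were each at 5 (21.7%), beside 21.8% and 12.7%. The same 5 genes made up both of those Huh7 counts: HIST1H4B, HIST2H2AA3, BOLA1, ENSG00000282988 and HMGN4. The first 2 are histone genes under older symbols. BOLA1 has a start within reach of the peak over H2BC21 and H2AC20, and ENSG00000282988 is annotated as a readthrough that begins at H2AC7. HMGN4, for a nucleosome-binding HMG protein, therefore was the one gene of the 5 with peaks that are not also credited to a histone gene. HIST1H4B had all 9 lists, with INO80 peaks of 1210 bp in HepG2 and 2151 bp in Huh7, and HIST2H2AA3 lay under the peaks of H3C14.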

How the data were processed

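ChIP-seq peaks of 5 proteins were taken from 9 peak lists, 5 for HepG2 and 4 for Huh7. Per the submitters' processing notes the tools were MACS2, Bowtie2, deepTools, bedtools and SAMtools, and the human build was hg19. Versions, filters and whether replicate libraries were pooled are not given in the sources used here. The deposited lists have 6 columns and no header line, and hold each peak's position and name, with no height, fold or q-value. Starts were those of coding transcripts of the basic set in GENCODE 44, lifted to GRCh37. A gene was called when a peak overlapped the 1 kb on either side of any start by at least 1 bp. Clusters were runs of members with gaps under 1 Mb. Coordinates are 1-based. Overlaps were made in Python 3.11.15 with numpy 2.4.6 and tested on simulated peaks against bedtools 2.31.1, copies were aligned with BLAST 2.17.0, and bases were read with pysam 0.24.0. Members and gene lists were chosen with earlier results of these data known. Genes named with values were the 2 of each family with the widest INO80 peak in each line, members lacking INO80 in a line or every list, H4C16, and the 4 divergent pairs with the widest INO80 peaks; others were picked after their values were seen. The input libraries, the H3K27ac libraries and the fly chromatin counts were not used here. Alternatives were the window, the starts used, nearest-start assignment, peak width and rank, and leaving out genes with near-identical promoters. The upstream sequence of 1 unbound gene and the values of 1 replication-independent histone gene are not reported here.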

Additional observations from a re-analysis of the deposited data

How the results depend on the processing

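Over 126 counts recomputed under other settings (90 of members and 36 of distinct peaks), 120 lay within 1.5 times the reported value. All 36 counts of distinct peaks did. Many of the counts could hardly move that far, so these numbers are no measure of robustness. Keeping chromosomes 6 and 1 alone drops 1 member, and leaving out near-identical promoters drops 6. The wider window and the starts of every transcript can only add members, up to 64. Giving each peak to the nearest coding start alone left INO80 in HepG2 at 35 members and YY1 in Huh7 at 38. Keeping in each list its widest 3322 peaks, the number in the shortest list, left INO80 in HepG2 at 32, MCRS1 in HepG2 at 31 and YY1 in HepG2 at 24 members, beside 15.6%, 15.3% and 16.2% of all coding genes. Asking that the peak cover the start base, an alternative chosen after seeing the data, left RUVBL2 in HepG2 at 28. The member share stayed above the share of all coding genes in 80 of the 81 combinations of list and setting with both shares. Those 81 include the reported setting of each of the 9 lists. The exception was INO80 in HepG2 under nearest-start assignment, at 54.7% against 57.3%. Settings that keep the widest peaks favour members, whose peaks were broader than those at coding starts. No paired analysis was possible because each antibody and line has 1 peak list and no test was made. Lists of unequal length and unknown depth limit any comparison of counts between antibodies or lines.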

Other observations

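Histone pseudogenes gave values outside the comparisons above. Of 14 annotated pseudogenes with symbols of the same form, 3 had no peak within 1 kb of the start in any list: H2BC2P and H2AC2P on chromosome 6, and H1-9P on chromosome 17, which holds no member. Most others lay beside a member and under its peaks. Of the 6 more than 2 kb from a member start on the same chromosome, 4 had a peak in some list. Among coding genes 27.8% had a peak in none. H3C5P, 2124 bp from the nearest member start, shared its MCRS1 peak of HepG2 and its Huh7 peaks with H2AC8. H3C9P, an H3 pseudogene 36758 bp from the nearest member, had 8 of the 9 lists, with INO80 peaks of 1217 bp in HepG2 and 1028 bp in Huh7, MCRS1 peaks of 1474 and 738 bp, RUVBL1 at 585 bp, RUVBL2 in HepG2 at 501 bp and YY1 at 1071 and 347 bp. RUVBL2 in Huh7 had none there. H2BC27P, 6491 bp from H2BC26, had INO80 in HepG2 (887 bp) and Huh7 (658 bp) and YY1 in Huh7 (329 bp). Its INO80 peak in HepG2 was wider than the 318 bp peak at the coding pair H2AC25 and H2BC26.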
